A study of Mus musculus with 20 samples.

Results

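Mitochondrial ribosomal protein genes were followed across 20 arrays of mouse bone marrow cultures and of cells labelled as erythroblast stages. The members were the probe sets annotated with a single gene symbol beginning Mrpl or Mrps and a digit, with 1 probe set per gene; 76 genes of the 19505 on the array met this rule, 48 of the large and 28 of the small subunit by symbol. Each of the 10 groups had 2 arrays. The cultured groups were labelled D1 or D2, each with a control and an IL6 arm: lineage-negative bone marrow cells of female wild-type C57BL/6 mice, grown in erythropoietin medium, with recombinant mouse IL-6 at 100 ng/mL present from the start in the IL6 groups. The labels do not define D1 and D2 beyond stating that cultures ran for different times, and the design text names 2 wild-type mice as their source. The in vivo groups were DWT (double wild type) and DKO (mDia1-miR-146a double knockout), both C57BL/6 and 1 year old. Their arrays were labelled as proerythroblasts (I), basophilic with polychromatic erythroblasts (II+III) or orthochromatic erythroblasts (IV). These came from 2 mice per genotype, so stages of a genotype share mice; replicate 1 of each DWT group was male and replicate 2 female, and all DKO arrays were female. How the stages were isolated is not stated in the labels.

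Mitochondria carry their own ribosome, which translates the few proteins encoded by mitochondrial DNA, all of them subunits of the respiratory chain and ATP synthase. Its protein subunits are encoded in the nucleus, made on cytosolic ribosomes and imported. In the erythroid lineage, mitochondria supply the haem pathway during maturation and are removed before the red cell is complete. By symbol alone, membership is approximate: the proteins named Mrps30 and Mrps18a have been placed in the large subunit, and Mrps36 is known as a component of the 2-oxoglutarate dehydrogenase complex.

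The sequences just upstream of the members' start sites are shown for the genes on which the results turn. RefSeq promoter windows (build GRCm38.p6) matched 67 of the 76 members, and the 250 bases before the start are printed 5′ to 3′ on the strand of the gene. Mrpl3 had the largest fall between D1-IL6 and D2-IL6, Mrpl47 fell together with the gene that starts opposite it, Mrps25 was the only member to differ with IL-6, and Mrpl32 was the only member to rise between D1-Control and D2-Control. For Mrpl32, and for Mrps11 with Mrpl46, only the stretch between the start and that of the opposite gene is printed, because the remainder belongs to that gene. Capitals mark matches on either strand to the ETS motif CCGGAAG, the NRF1 core GCATGCGC, the CCAAT box, the GATA motif AGATAA, the E-box CACGTG or the YY1 core AAGATGGC. A longer NRF1 motif, the core preceded by GC, contains the core.
Mrpl3 (chr9:105053018-105053267, plus strand): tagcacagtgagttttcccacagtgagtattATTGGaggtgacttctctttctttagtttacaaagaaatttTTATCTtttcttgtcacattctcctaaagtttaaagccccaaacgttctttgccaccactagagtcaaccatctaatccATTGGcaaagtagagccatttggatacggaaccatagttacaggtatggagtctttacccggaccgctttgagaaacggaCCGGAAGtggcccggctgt
Mrpl47 (chr3:32736756-32737005, minus strand): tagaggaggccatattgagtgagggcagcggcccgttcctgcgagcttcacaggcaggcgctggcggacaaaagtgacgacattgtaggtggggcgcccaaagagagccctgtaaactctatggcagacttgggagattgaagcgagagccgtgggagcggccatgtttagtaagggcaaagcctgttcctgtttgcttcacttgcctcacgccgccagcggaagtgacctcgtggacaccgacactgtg
Mrps25 (chr6:92184024-92184273, minus strand): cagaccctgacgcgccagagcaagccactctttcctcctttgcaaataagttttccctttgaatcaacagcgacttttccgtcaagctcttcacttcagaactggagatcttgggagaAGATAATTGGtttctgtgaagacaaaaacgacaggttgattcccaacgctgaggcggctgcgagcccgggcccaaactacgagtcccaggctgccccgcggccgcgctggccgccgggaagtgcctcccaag
Mrpl32 to Psma2 (chr13:14613038-14613241, minus strand): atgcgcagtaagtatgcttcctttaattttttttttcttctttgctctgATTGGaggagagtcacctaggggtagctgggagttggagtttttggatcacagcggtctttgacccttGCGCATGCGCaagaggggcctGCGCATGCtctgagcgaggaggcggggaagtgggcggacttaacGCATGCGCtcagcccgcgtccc
Mrps11 to Mrpl46 (chr7:78783090-78783130, plus strand): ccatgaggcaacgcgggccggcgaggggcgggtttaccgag

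The ETS motif lay 19 bases before the start of Mrpl3. In Mrps25 a GATA match overlapped a reversed CCAAT box, 132 and 127 bases before the start. The stretch before Mrpl32 held 4 matches to the NRF1 core, of which a pair, 87 and 85 bases before the start, overlapped within the longer motif. No searched motif was found in the windows of Mrpl47 or between Mrps11 and Mrpl46.

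Shares are given per gene, with a gene counted once if any of its promoters held the motif, since several starts of a gene can have overlapping windows; the 67 members had 73 promoters. The ETS motif was present for 25.4% of members, against 10.5% of genes on the array and 7.83% of all genes in the reference. It was present for 33.3% of the 42 cytosolic ribosomal protein genes with a RefSeq start. The NRF1 core, a motif of the nuclear respiratory factor that regulates many mitochondrial genes, was present for 11.9% of members, 3.44% of genes on the array, 2.56% of all genes and none of the cytosolic ribosomal protein genes. The YY1 core was present for 5.97% of members, 1.78% of genes on the array, 1.83% of all and 4.76% of the cytosolic list. The GATA motif was present for 16.4% of members, 10.2% of genes on the array, 11.4% of all and 4.76% of the cytosolic list. The E-box was present for 7.46% of members and 7.92% of genes on the array, and the CCAAT box for 35.8% and 39.2%, so neither was more frequent among members. The median count of CpG per promoter was 17 for members, 16 for the cytosolic list and 10 for genes on the array, and the median GC content was 58.4%, 57.2% and 56.0%. These matches describe letters only and were not tested.

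Values were log2 intensities, so a difference of 1 is a doubling. A value was called near background when it did not reach the background level of its array, the 95th percentile of 23 background probe sets, which was 7.25 to 7.74. By this measure 43 members were above background on all 20 arrays, 29 on 1 to 19 arrays and 4 on none (Mrpl10, Mrpl36, Mrpl43 and Mrps15). For members near background in a group, a change was only bounded. Between 34.9% and 43.0% of probe sets with a symbol were above background per array. The second DKO-I array stood apart: its highest correlation with any other array was 0.909, against 0.970 to 0.994 for the other 19. Diaph1, which encodes mDia1, was near background on all 6 DKO arrays (6.87 to 7.59) and at 9.29 to 11.49 on the DWT arrays, although it is not known whether the probes fall within the deletion. Erythroid markers were present in every group, but 2 of the 10 (Epor and Sptb) were near background on both DKO-I arrays, and the 14 neutrophil markers, on average 14.46 and 16.96 there, were also at 16.54 and 16.62 on the DWT-I arrays labelled as proerythroblasts.

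Member levels were highest in the D1 cultures and low in the D2 cultures, with most in vivo arrays between. The mean over the 76 members was 10.71 to 10.81 on the 4 D1 arrays and 8.84 to 9.15 on the 4 D2 arrays. In vivo it ran from 9.72 to 10.09 at DWT-I, 9.62 to 9.69 at DWT-II+III and 9.09 to 9.34 at DWT-IV, and from 9.83 to 10.08, 10.06 to 10.43 and 9.65 to 9.83 at the same stages of DKO. The group with the highest mean was D1-IL6 for 37 members, D1-Control for 19 and DKO-I for 14. The lowest was D2-Control for 42, D2-IL6 for 13 and DWT-IV for 11. Every D1 array was above every other array by this mean, whereas the D2 arrays overlapped the DWT-IV arrays. The DWT stages did not overlap each other, while DKO-I and DKO-II+III did.

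**Figure D1:**
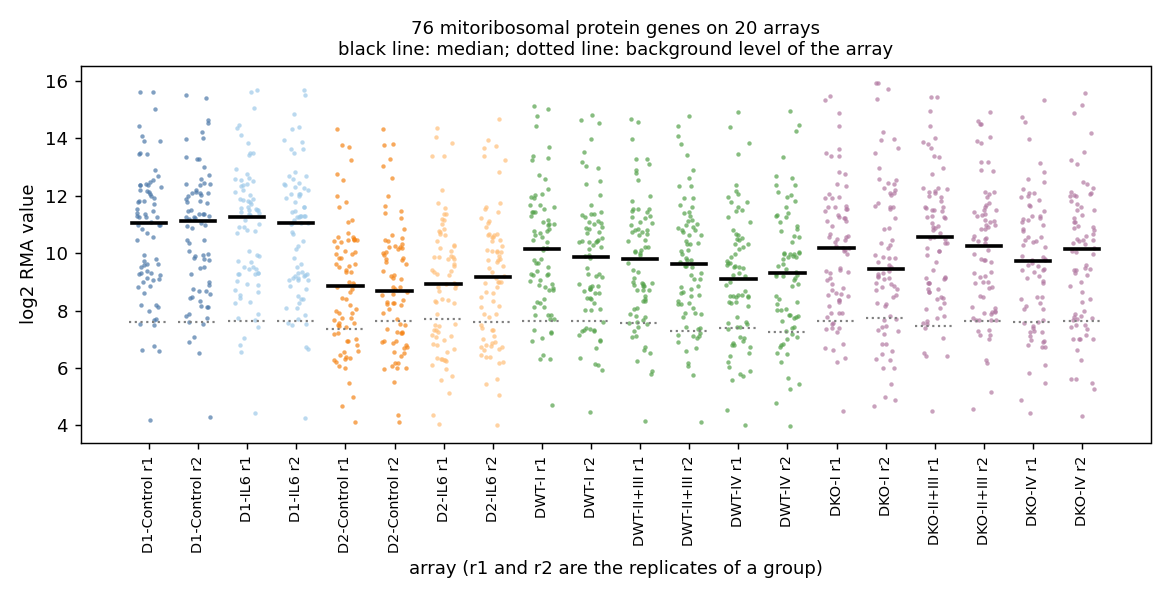
log2 RMA values of the 76 members (points) on each of the 20 arrays (x axis), with the member median as a black line and the array's background level as a dotted line; the 4 D2 arrays sit low, with member medians of 8.70 to 9.16 against 11.05 to 11.24 on the 4 D1 arrays.

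Between D1-Control and D2-Control nearly all members went down. Of 76 members, 68 fell and 1 rose (limma, Benjamini-Hochberg adjusted p under 0.05 over all 19572 probe sets with a symbol), in a comparison in which 23.5% of probe sets fell and 19.7% rose (43.2% in all). The median difference was -1.89, against 0.16 over all genes. Of the large-subunit members 43 of 48 fell, with a median of -2.01, and of the small-subunit members 25 of 28, with a median of -1.80. The counts in IL-6 culture were similar: 69 members fell and none rose between D1-IL6 and D2-IL6, where 20.2% of probe sets fell and 13% rose (33.2% in all), and the median was -1.75 against 0.09. Both D2 arrays lay below both D1 arrays for 74 members in each culture, where 32.4% of probe sets did so in control and 31.7% in IL-6 culture. No label says that the 2 arrays of a group came from separate cultures, so these p-values measure only the spread between the arrays, which may be technical. In bulk RNA such as this, fewer cells of a type and less RNA per cell cannot be told apart.

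The calls include 4 members in each culture that were near background on all 4 arrays compared: Mrpl10, Mrpl36 and Mrps15 in both, Mrps35 in control and Mrpl54 in IL-6 culture. No fold is given for these. A filter on the D1 arrays keeps members through the group in which they are high, so the comparison was also read among probe sets above background on both D2 arrays. There 41.6% of probe sets fell in control culture, with a median of -0.36, and 44 of the 48 members that passed this filter fell, with a median of -1.80. In IL-6 culture 39.3% of probe sets fell, and 44 of 49 members. The control and IL-6 comparisons share no arrays; 65 members fell in both, as did 17.9% of all probe sets.

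The largest falls in control culture were those of Mrpl19, Mrpl47, Mrps25, Mrpl42 and Mrpl3. Mrpl19, a large-subunit protein of bacterial ancestry at the subunit interface, read 12.15 and 12.14 on the D1-Control arrays and 7.21 and 8.29 on the D2-Control arrays. One of the latter was near background, and the fitted difference was -4.39 ± 0.35 (SE; limma adjusted p = 4.03e-06). In the IL-6 cultures it read 11.77 and 11.79 and then 8.78 and 9.34, a difference of -2.72 ± 0.35 (limma adjusted p = 0.000162). The arrays did not overlap in either culture.

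Mrpl47, a large-subunit member near the exit of the nascent chain, read 11.25 and 11.36 at D1-Control and 7.003 and 8.26 at D2-Control. It fell by 3.68 ± 0.39 (limma adjusted p = 2.98e-05), and by 3.30 ± 0.39 in IL-6 culture (limma adjusted p = 8.45e-05). Mrpl42, which has no bacterial counterpart, read 13.91 and 14.01 at D1-Control and 10.38 and 10.31 at D2-Control. All 4 values were well above background, so its fall of 3.62 ± 0.23 (limma adjusted p = 8.24e-07), 12.3-fold, was fully measured. In IL-6 culture it went from 14.11 and 13.87 to 11.35 and 10.68.

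Mrpl3 lies near the peptidyl transferase centre, and defects in it cause a combined respiratory chain deficiency in people. It read 10.84 and 10.87 at D1-Control and 7.99 and 6.94 at D2-Control, and 11.01 and 11.14 at D1-IL6 and 7.14 and 8.34 at D2-IL6. The falls were 3.39 ± 0.43 (SE; limma adjusted p = 0.000106) and 3.34 ± 0.43 (limma adjusted p = 0.000153). In each D2 pair 1 of the arrays was near background. Mrpl38, a large-subunit protein without a bacterial counterpart, read 10.91 and 11.29 at D1-IL6 and 8.36 and 7.89 at D2-IL6, all above background, and fell by 2.98 ± 0.29 there (limma adjusted p = 1.87e-05).

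Among small-subunit members that fell, Mrps28 read 10.58 and 10.44 at D1-Control and 7.75 and 7.20 at D2-Control, and 10.78 and 10.72 at D1-IL6 and 7.52 and 7.50 at D2-IL6. Both D2-IL6 values were near background, so the fall there was at least 8.51-fold (limma adjusted p of the fitted difference = 8.69e-06). Mrps27, a protein of the pentatricopeptide repeat family that binds RNA, read 8.85 and 10.07 at D1-Control and 6.22 and 6.699 at D2-Control. Its D2 values were near background in both cultures, which leaves falls of at least 3.94-fold and at least 3-fold. Mrps35 was already near background at D1-Control (7.52 and 7.53). Mrps25 is described with the IL-6 comparison.

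Of the 3 members around the factor-binding site of the large subunit, both that were measurable fell. Mrpl12, the stalk protein that contacts translation factors, read 9.59 and 9.53 at D1-Control and 7.90 and 8.24 at D2-Control, a fall of 1.49 ± 0.29 (limma adjusted p = 0.00204). Mrpl11, at the base of the stalk, read 11.28 and 11.37 and then 8.42 and 8.64, a fall of 2.80 ± 0.25 (limma adjusted p = 7.74e-06). Mrpl10, which anchors the stalk, was near background everywhere and gives no fold. With quantile normalization Mrpl12 no longer passed in control culture (-0.71, limma adjusted p = 0.101).

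Members with other defined roles in the large subunit also fell. Mrpl45, at the exit tunnel next to the inner membrane, went from 11.82 and 11.18 to 9.35 and 9.21 in control culture (fell by 2.22 ± 0.28, limma adjusted p = 9.98e-05). Mrpl58, a peptidyl-tRNA hydrolase that rescues stalled ribosomes and is also a structural subunit, went from 10.99 and 11.25 to 8.76 and 9.36 (fell by 2.06 ± 0.28, limma adjusted p = 0.000166). Mrpl44, which has a ribonuclease III-like fold, was an exception in control culture. It read 7.67 and 8.44 at D1-Control and 7.57 and 7.21 at D2-Control, a difference of -0.66 ± 0.33 (limma adjusted p = 0.123), whereas from 8.52 and 8.41 at D1-IL6 it fell to 6.98 and 7.34, near background, at D2-IL6 (limma adjusted p = 0.0102). That call was lost with quantile normalization (limma adjusted p = 0.0633), with all 20 arrays in 1 fit (limma adjusted p = 0.179) and without either D1-IL6 array or D2-IL6 replicate 1 (limma adjusted p of 0.0505 to 0.0706).

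In the small subunit, Mrps12, part of the decoding centre, went from 11.53 and 11.36 at D1-Control to 8.99 and 9.12 at D2-Control, a fall of 2.39 ± 0.28 (limma adjusted p = 6.05e-05). Mrps16, Mrps22 and Mrps34, in each of which mutations cause mitochondrial disease in people, were all above background at D1-Control and near it at D2-Control. Mrps16 went from 8.98 and 8.74 to 6.55 and 6.55, at least 2.59-fold lower. Mrps22 went from 9.26 and 8.68 to 6.81 and 7.24, at least 2.79-fold lower. Mrps34 went from 9.10 and 9.26 to 7.19 and 7.36, at least 3.24-fold lower. All 3 passed, with limma adjusted p of 4.93e-05, 0.000568 and 0.000201.

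The Mrps18 paralogs, which descend from a single bacterial protein and occupy different places on the ribosome, all fell, by different amounts. Mrps18c, the one in the bacterial position, went from 15.61 and 15.51 at D1-Control to 14.32 and 14.32 at D2-Control, a fall of 1.24 ± 0.13 (limma adjusted p = 2.47e-05). Mrps18a went from 11.77 and 12.40 to 10.44 and 10.63, a fall of 1.55 ± 0.26 (limma adjusted p = 0.00086). Mrps18b went from 9.32 and 8.33 to 6.46 and 6.52, near background, so it was at least 2.53-fold lower (limma adjusted p = 0.000334). Whether the paralogs' falls differ from each other was not tested. Of the 13 members named here for their roles in the ribosome other than Mrpl10, 12 fell in control culture (Mrpl44 did not pass) and 13 with IL-6, and none passed in any comparison of IL-6 with control or in vivo.

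Mrpl32 was the only member that rose. Its protein is processed by the m-AAA protease of the inner membrane before it joins the large subunit. It read 9.24 and 9.49 at D1-Control and 10.07 and 10.17 at D2-Control, a rise of 0.76 ± 0.26 (limma adjusted p = 0.0362), and 9.503 and 9.28 at D1-IL6 and 9.87 and 10.09 at D2-IL6 (0.59 ± 0.26, limma adjusted p = 0.105). Every D2 value exceeded every D1 value, but the call was lost when arrays were centred on their medians (0.63, limma adjusted p = 0.0897), when all 20 arrays were fitted together (limma adjusted p = 0.1) or only the arrays compared (limma adjusted p = 0.0528), and without any 1 of the 4 arrays (limma adjusted p of 0.0677 to 0.188). Psma2, a proteasome subunit whose start faces that of Mrpl32 from 205 bases away, differed by 0.10 between D2-Control and D1-Control (limma adjusted p = 0.42).

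The 3 members that passed in neither culture were Mrps21, Mrpl30 and Mrpl43. Mrps21, a small-subunit protein with a bacterial homologue, read 11.71 and 11.51 at D1-Control and 11.78 and 11.63 at D2-Control, so its groups overlapped, as they did with IL-6 (11.40 and 11.60 against 11.37 and 11.42). Mrpl30 read 9.79 and 9.98 at D1-Control and 9.42 and 9.63 at D2-Control, a difference of -0.36 ± 0.27 (limma adjusted p = 0.304). Mrpl43 was near background on all 20 arrays. A further 3 members fell in control culture only (Mrpl52, Mrpl9 and Mrpl1) and 4 in IL-6 culture only (Mrps23, Mrpl44, Mrps30 and Mrpl54, the last near background on all 4 arrays); none of these 7 showed a tested difference between the cultures.

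**Figure D2:**
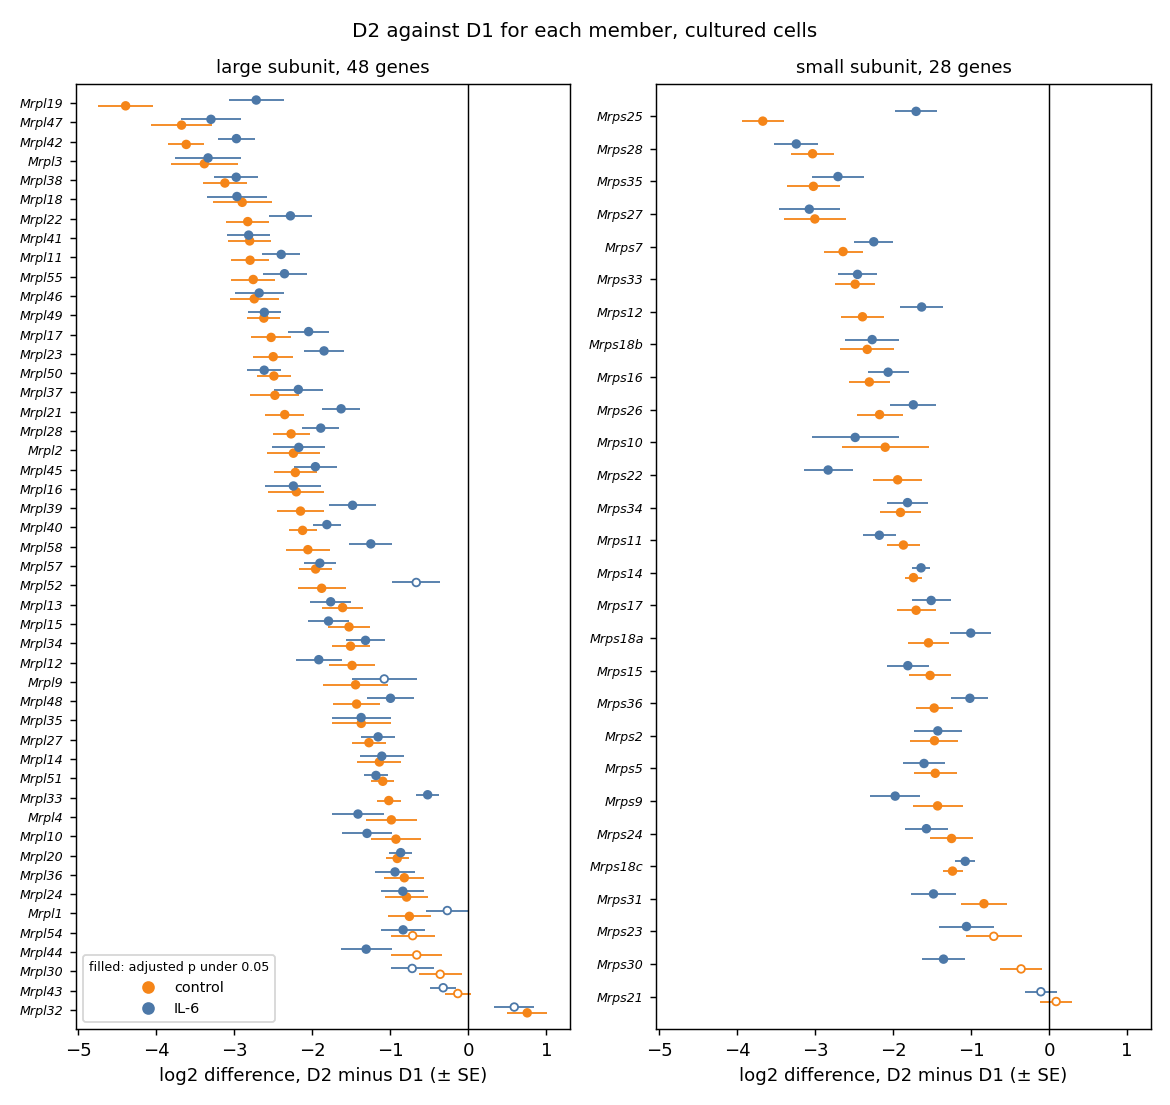
log2 difference between D2 and D1 (x axis, with its SE) for each large-subunit (left) and small-subunit (right) member, in control (orange) and IL-6 (blue) culture; filled points had a limma adjusted p under 0.05. All points but those of Mrpl32 and 1 of Mrps21 lie below 0, and Mrpl19 reaches -4.39 in control culture.

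Most other genes of mitochondrial gene expression that passed fell too, although most assembly and rRNA modification genes did not fall. Of the 27 genes in that list, 12 were near background on both D2-Control arrays and 13 on both D2-IL6 arrays. Over all probe sets 23.5% fell in control culture and 20.2% with IL-6. Among those above background on both D2 arrays the shares were 41.6% and 39.3%. All 12 translation factors fell between D1-Control and D2-Control and 11 of 12 with IL-6, led by the elongation factor Tufm, which fell by 3.44 ± 0.34 and 2.57 ± 0.34. Of 27 assembly and rRNA modification genes, 11 fell in control culture and 12 with IL-6; Noa1, a GTPase of ribosome assembly, was at least 3.13-fold and at least 2.55-fold lower, and C1qbp, a matrix protein required for mitochondrial translation, fell by 3.50 ± 0.17 and 3.37 ± 0.17. Of 19 mitochondrial tRNA synthetases and amidotransferase subunits, 14 and 13 fell and 1 rose: Fars2, the phenylalanine enzyme, which rose by 5.55 ± 0.23 and 5.43 ± 0.23. The arginine enzyme Rars2 was at least 2.99-fold lower in control culture and the methionine enzyme Mars2 at least 3.11-fold lower with IL-6. Of 13 genes of mitochondrial DNA transcription and maintenance, 9 and 8 fell and Tfb2m, a transcription factor of the mitochondrial genome, rose by 0.93 ± 0.31 and 1.01 ± 0.31 (limma adjusted p = 0.0318 and 0.0275). Slirp, which stabilises mitochondrial mRNA, fell by 2.06 ± 0.13 in control culture, and the transcription elongation factor Tefm was at least 2.38-fold lower with IL-6. Of 4 mitoribosomal proteins under other symbols, 3 fell in each culture, with Ptcd3 falling by 2.29 ± 0.35 and 2.49 ± 0.35. Tufm, C1qbp, Fars2 and Ptcd3 had limma adjusted p of 0.000404 or less in both cultures.

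Respiratory chain and cytosolic ribosomal genes had smaller median differences. Of 73 nuclear-encoded respiratory chain and ATP synthase subunits 60 fell and 3 rose in control culture, with a median of -0.93. Of 54 cytosolic ribosomal proteins 44 fell and 1 rose, with a median of -0.43. With IL-6 the counts were 53 falling and 1 rising of 73 (median -0.76), and 39 falling of 54 (median -0.38). Cytosolic ribosomal probe sets were very bright, with list means of 15.73 to 16.22 on the cultured arrays, and the part of brightness in the medians was not tested.

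**Figure D3:**
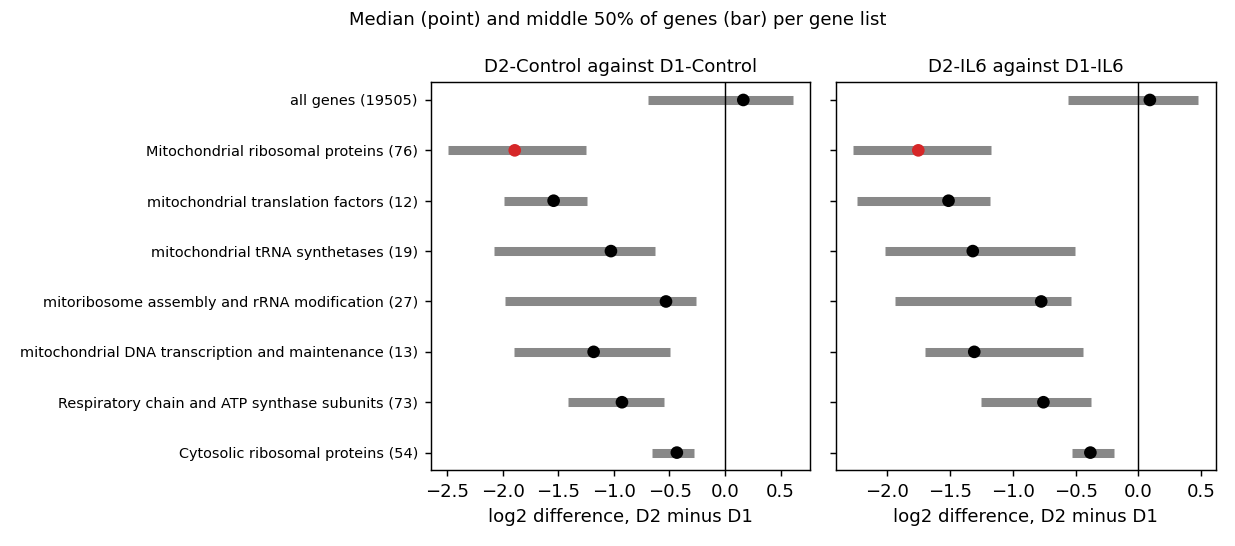
Median (point) and middle 50% of genes (bar) of the log2 difference between D2 and D1 in control (left) and IL-6 (right) culture, for the members (red), related gene lists with their sizes, and all genes; the member medians are -1.89 and -1.75, against 0.16 and 0.09 over all genes.

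Markers of other cells and of proliferation also moved between D1 and D2. Mean mast cell and basophil marker levels (4 genes) went from 10.49 and 11.21 to 6.22 and 7.08 in control culture. With IL-6 they went from 10.09 and 10.86 to 5.85 and 6.16; 3 of the 4 fell in each culture. Monocyte and macrophage markers (9 genes) went from 10.48 and 10.98 to 7.59 and 7.64 in control culture, where 7 fell, but from 11.14 and 11.25 to 11.75 and 11.87 with IL-6, where 4 rose and 1 fell. Neutrophil markers (14 genes) went from 8.84 and 9.61 to 6.64 and 6.67 in control culture, where 9 fell, and from 10.04 and 10.34 to 8.91 and 9.01 with IL-6, where 5 fell and 1 rose. Of 13 proliferation genes, 12 fell in each culture. Of 10 erythroid markers, 4 rose and 2 fell in control culture and 5 rose and 2 fell with IL-6. The part of these shifts in the members' fall was not tested.

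With IL-6, 1 member passed. Between D1-Control and D1-IL6 no member passed (limma), where 0.0511% of probe sets passed (0.046% higher and 0.00511% lower). No member had an unadjusted p under 0.05, against 2.83% of probe sets. The median difference was 0.06 against 0.00 over all genes. Between D2-Control and D2-IL6, 1 member rose and none fell, where 2.92% of probe sets rose and 0.393% fell (3.31% in all); 15 members (of 76) and 14.3% of probe sets had an unadjusted p under 0.05. The median was 0.17 against -0.07 over all genes, but 0.05 against -0.07 with quantile normalization, and 0.00 for members without D2-IL6 replicate 2.

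At D1 the smallest p values were those of Mrpl20, Mrpl15, Mrpl44, Mrpl13 and Mrps14, with differences of -0.32 to 0.41 and a limma adjusted p of 1 each. For example, Mrpl15 read 9.51 and 9.79 at D1-Control and 9.91 and 10.13 at D1-IL6. Both IL-6 arrays were higher, but the difference of 0.37 ± 0.27 (SE) did not pass.

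The member that rose was Mrps25, a small-subunit protein without a bacterial counterpart. It read 10.71 and 10.47 at D1-Control, 10.81 and 10.44 at D1-IL6, 6.92 and 6.92 at D2-Control and 8.89 and 8.95 at D2-IL6. The D2-Control values were near background and the D2-IL6 values were not, so Mrps25 was at least 2.7-fold higher with IL-6 (fitted difference 2.00 ± 0.27, limma adjusted p = 0.00138). The IL-6 effect differed between D2 and D1 by 1.97 ± 0.38 (limma adjusted p = 0.0337), in a test that 1.19% of probe sets passed, 1.17% with a higher and 0.0153% with a lower difference. That difference no longer passed when all 20 arrays were fitted together (limma adjusted p = 0.147) or without any single array (limma adjusted p of 0.07 to 0.229). The D2 effect itself passed in all alternatives run, with limma adjusted p of 0.000506 to 0.0156.

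Mrpl52 and Mrpl19 came next. Mrpl52 read 8.20 and 7.92 at D2-Control and 9.61 and 8.83 at D2-IL6, a difference of 1.16 ± 0.31 (limma adjusted p = 0.0828). Mrpl19, given above, differed by 1.31 ± 0.35 (limma adjusted p = 0.088). Both passed when probe sets near background were left out of the fit (limma adjusted p = 0.0408 and 0.0414). Mrpl52 also passed without D2-IL6 replicate 2 (limma adjusted p = 0.0284) and Mrpl19 without D2-Control replicate 2 (limma adjusted p = 0.0147). Mrpl58 and Mrpl33 followed, with differences of 0.87 ± 0.28 and 0.47 ± 0.15 (limma adjusted p = 0.16 and 0.167). Of 9 monocyte and macrophage markers 8 rose and 1 fell in this comparison, and of 14 neutrophil markers 8 rose; their part in the value of Mrps25 was not tested.

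**Figure D4:**
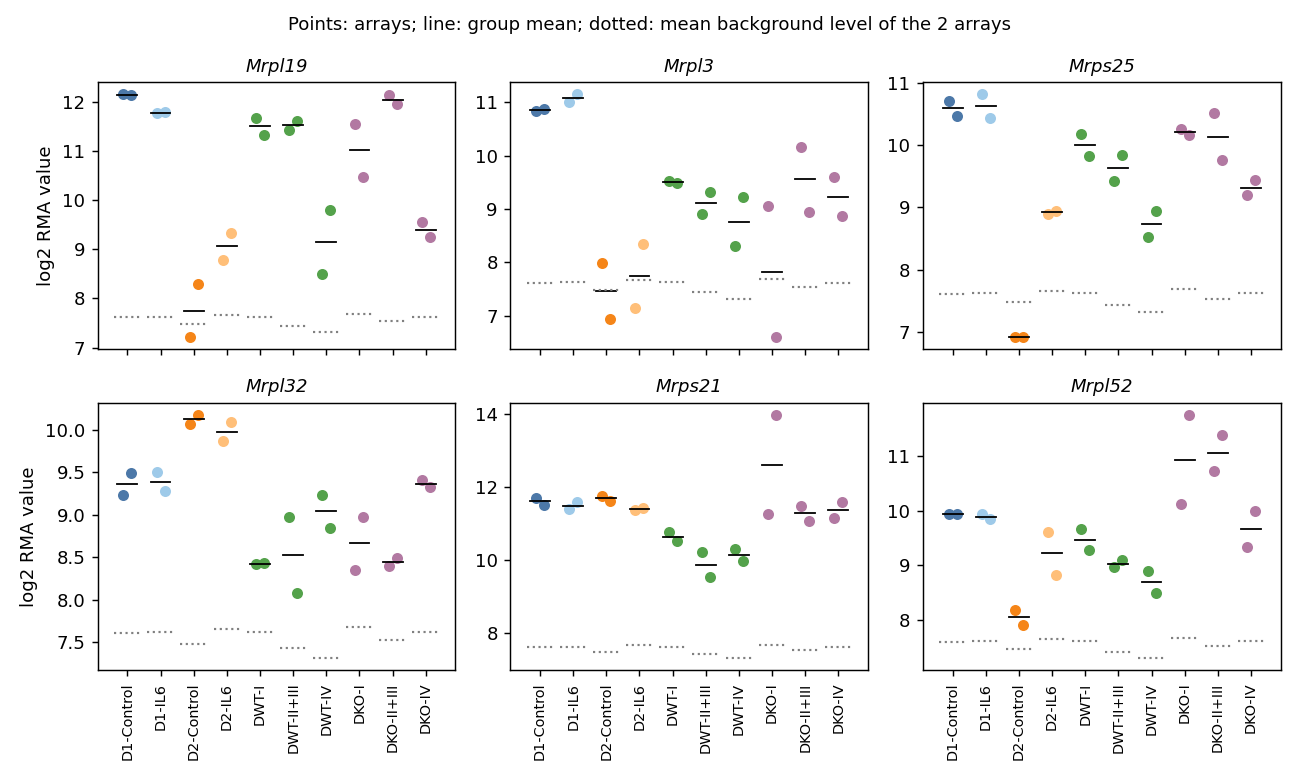
log2 RMA values of 6 members in the 10 groups: each point is an array, the short line the group mean and the dotted line the mean background level. Mrps25 lies below background only in D2-Control (6.92 and 6.92), Mrpl32 is highest in the D2 groups, and Mrps21 shows no step between D1 and D2 but a single high DKO-I array (13.98).

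In vivo, few members passed between stages. Between DWT-I and DWT-II+III no member passed (limma), 2 had an unadjusted p under 0.05 (7.44% of probe sets), and the median was -0.25 (-0.05 without DWT-I replicate 1, -0.45 without DWT-I replicate 2), where 0.245% of probe sets passed (0.0255% higher and 0.22% lower). Between DWT-II+III and DWT-IV 1 member fell and none rose, where 3.57% of probe sets fell and 1.59% rose (5.16% in all), and the median was -0.46 against 0.12 over all genes (-0.18 against 0.08 with quantile normalization). Between DKO-I and DKO-II+III none passed, where 0.327% of probe sets did (0.24% higher and 0.0869% lower), with 12 members and 10.4% of probe sets at an unadjusted p under 0.05 and a median of 0.19. Between DKO-II+III and DKO-IV 2 fell, where 3.66% of probe sets fell and 4.11% rose (7.77% in all), and the median was -0.45 against 0.06 (-0.25 against 0.03 with quantile normalization).

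Mrpl19 was the member that fell from II+III to IV in both genotypes. It read 11.43 and 11.61 at DWT-II+III and 8.50 and 9.79 at DWT-IV, a fall of 2.37 ± 0.52 (limma adjusted p = 0.0303). In DKO it read 12.13 and 11.96 at II+III and 9.55 and 9.25 at IV, a fall of 2.64 ± 0.52 (limma adjusted p = 0.0137). The arrays did not overlap in either genotype. Mrps10, whose bacterial homologue sits in the head of the small subunit, read 8.94 and 8.99 at DKO-II+III and 6.92 and 6.26, near background, at DKO-IV, so it was at least 2.55-fold lower (limma adjusted p = 0.0109). In DWT it read 8.34 and 7.05 and then 6.72 and 7.01, a difference that did not pass (limma adjusted p = 0.307).

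Other members from II+III to IV did not pass. In DWT, Mrpl24 read 12.79 and 12.91 and then 10.66 and 11.96 (limma adjusted p = 0.0932), and Mrpl33 read 13.28 and 13.80 and then 11.60 and 12.61 (limma adjusted p = 0.104). In DKO, Mrpl23 read 13.34 and 13.19 and then 10.99 and 12.12 (limma adjusted p = 0.0786), and Mrpl42 read 14.02 and 14.60 and then 12.08 and 12.40 (limma adjusted p = 0.0846). The arrays of these 4 members did not overlap between stages.

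From I to II+III the members with the smallest p values differed between the genotypes. No member's step passed the test of a difference between the genotypes, which is given below as the DKO effect between stages. In DWT, Mrpl33 read 14.77 and 14.53 and then 13.28 and 13.80 (limma adjusted p = 0.595). Its step in DKO was alike, from 15.48 and 15.92 to 14.97 and 13.90 (-1.27 ± 0.46, limma adjusted p = 0.423). The difference between these 2 steps was -0.15 ± 0.66. Mrpl21 read 12.22 and 12.02 and then 11.55 and 11.41 in DWT (limma adjusted p = 0.849). In DKO, Mrps23 read 9.96 and 9.84 and then 8.96 and 8.13 (limma adjusted p = 0.335). Mrpl38 read 9.35 and 6.27 and then 10.35 and 10.35 (limma adjusted p = 0.339), where the low value came from the array that stands apart.

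The spread of the in vivo fit was set in part by DKO-I replicate 2. Without that array 8 members fell from DWT-II+III to DWT-IV, as did 9.84% of probe sets, and 11 from DKO-II+III to DKO-IV, as did 9.80% of probe sets. Mrpl19, Mrpl23 and Mrpl17 were among them in both and above background on every array compared. Mrps15 and Mrps35 were also in both. Mrps15 was near background on all of these arrays, and Mrps35 on all but DKO-II+III replicate 1. Without the single arrays of the groups compared, the counts ran from 0 to 2 in DWT (0 without DWT-II+III replicate 1, DWT-II+III replicate 2 or DWT-IV replicate 1, and 2 without DWT-IV replicate 2) and from 0 to 1 in DKO (0 without DKO-II+III replicate 1, DKO-II+III replicate 2 or DKO-IV replicate 2, and 1 without DKO-IV replicate 1). Without DKO-I replicate 1, which leaves only the array that stands apart and assumes that it varies like the others, 31 members passed between DKO-I and DKO-II+III, 23 higher and 8 lower, where 11.2% of probe sets rose and 12.1% fell. Neutrophil markers fell with stage too: 7 of 14 from DWT-II+III to DWT-IV and 8 of 14 from DKO-II+III to DKO-IV. Between these stages mean erythroid levels rose from 13.99 and 14.72 to 15.51 and 15.78 in DWT. In DKO they rose from 11.96 and 12.84 to 15.42 and 15.43. Mean proliferation levels rose from 13.69 and 14.36 to 15.27 and 15.35 in DWT. In DKO they rose from 12.84 and 13.18 to 15.07 and 15.15. Mean monocyte and macrophage levels fell from 11.56 and 12.49 to 9.115 and 9.64 in DWT. In DKO they fell from 13.16 and 13.43 to 10.45 and 10.96. The part of these shifts in the members' values was not tested.

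No member passed between DKO and DWT at any stage, although most members lay higher in DKO at II+III and IV. At stage I no member passed (limma; 12 members and 15.5% of probe sets had an unadjusted p under 0.05), where 0.445% of probe sets passed (0.0562% higher and 0.388% lower). The median was 0.14 against 0.15 over all genes, but 0.39 against 0.05 with quantile normalization and 0.04 against 0.05 with arrays centred. At II+III none passed (15 members and 9.28% of probe sets had an unadjusted p under 0.05), where 0.618% of probe sets passed (0.22% higher and 0.399% lower); 67 of 76 members were above 0, with a median of 0.57 against 0.01 (0.35 without DKO-II+III replicate 1, 0.83 without DKO-II+III replicate 2). There 53 members had both DKO arrays above both DWT arrays, where 23% of probe sets did. At IV none passed (8 members and 8.11% of probe sets had an unadjusted p under 0.05), where 0.046% of probe sets passed (0.0204% higher and 0.0255% lower); 72 of 76 were above 0, with a median of 0.47 against -0.02, and 44 did not overlap and were higher, where 22.4% of probe sets were.

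The members with the smallest p at II+III were Mrpl21 and Mrpl52. Mrpl21 read 11.55 and 11.41 at DWT-II+III and 12.96 and 12.89 at DKO-II+III, a difference of 1.45 ± 0.37 (limma adjusted p = 0.141). Mrpl52 read 8.97 and 9.09 and then 10.72 and 11.37, a difference of 2.01 ± 0.54 (limma adjusted p = 0.173). Without DKO-I replicate 2 these passed, with Mrpl42 and Mrpl34 (limma adjusted p of 0.0196 to 0.0403), where 1.06% of probe sets rose and 1.90% fell. Mrpl52 is a protein of the large subunit that bacteria lack.

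Further members at II+III had both DKO arrays higher without passing. Mrps16 read 7.12 and 6.60, near background, at DWT-II+III and 8.26 and 7.97 at DKO-II+III (limma adjusted p = 0.274). Mrps10 read 8.34 and 7.05 and then 8.94 and 8.99 (limma adjusted p = 0.336). Mrps28 read 8.71 and 8.34 and then 10.08 and 9.20 (limma adjusted p = 0.381).

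At IV the smallest p values were those of Mrpl17, Mrpl21 and Mrpl14, all of the large subunit. Mrpl17 read 9.65 and 9.61 at DWT-IV and 11.20 and 11.09 at DKO-IV, a difference of 1.51 ± 0.45 (limma adjusted p = 0.37). Mrpl21 read 10.49 and 10.95 and then 11.66 and 12.003 (1.11 ± 0.37, limma adjusted p = 0.453). Mrpl14 read 9.19 and 9.99 and then 10.78 and 11.24 (1.42 ± 0.53, limma adjusted p = 0.524). The pairs did not overlap.

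At stage I the smallest p values, of Mrps16, Mrps21, Mrps23, Mrpl52 and Mrpl42, had limma adjusted p of 0.284 to 0.307. Mrps21 read 10.78 and 10.52 at DWT-I and 11.26 and 13.98 at DKO-I, where the higher value came from the array that stands apart. Mrpl42 likewise read 13.23 and 12.96 and then 13.48 and 15.93. Without DKO-I replicate 1, 28 members passed at stage I, 12 higher and 16 lower, with that single remaining array as DKO-I, where 16.8% of probe sets rose and 14.2% fell. Of 10 erythroid markers 8 fell in DKO at this stage, with list means of 12.72 and 12.90 at DWT-I and 9.27 and 9.74 at DKO-I, and their part in the members' values was not tested.

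No member's DKO effect passed the test of a difference between stages: none passed between II+III and I (5 with an unadjusted p under 0.05) or between IV and II+III (1), and no probe set passed in either test (0%; 936 and 661 with an unadjusted p under 0.05). Mrps10 had the smallest unadjusted p in both, with differences of 1.69 ± 0.62 and -1.55 ± 0.62 (limma adjusted p = 0.799 and 1). Without DKO-I replicate 1, 18 members passed in the first of these, 16 with a higher and 2 with a lower difference, as did 8.01% and 5.79% of probe sets. Related lists lay higher in DKO as well: the medians at II+III were 0.58 for respiratory chain subunits and 0.24 for cytosolic ribosomal proteins, and at IV 0.67 and 0.63, with no gene of either list passing. Marker levels differed between the genotypes as well. Mean neutrophil marker levels were 12.95 and 14.27 at DWT-II+III and 15.76 and 16.05 at DKO-II+III. At DWT-IV they were 8.87 and 10.88 and at DKO-IV 11.58 and 12.93. Mean erythroid marker levels were 13.99 and 14.72 at DWT-II+III and 11.96 and 12.84 at DKO-II+III. At DWT-IV they were 15.51 and 15.78 and at DKO-IV 15.42 and 15.43. Of 10 erythroid markers 3 fell in DKO at II+III and none passed at IV. Mean mast cell and basophil levels were 13.55 and 14.13 at DWT-II+III and 9.70 and 12.26 at DKO-II+III. Mean T cell levels were 9.41 and 9.54 at DWT-II+III and 10.28 and 11.24 at DKO-II+III. The part of these differences in the members' values was not tested. The DWT groups held a male and a female mouse and the DKO groups females only, so sex and genotype are partly confounded. With the DWT mouse as a block no member passed in any comparison of DKO with DWT. That block leaves the differences between DKO and DWT unchanged and alters only the spread, so it cannot separate sex from genotype.

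**Figure D5:**
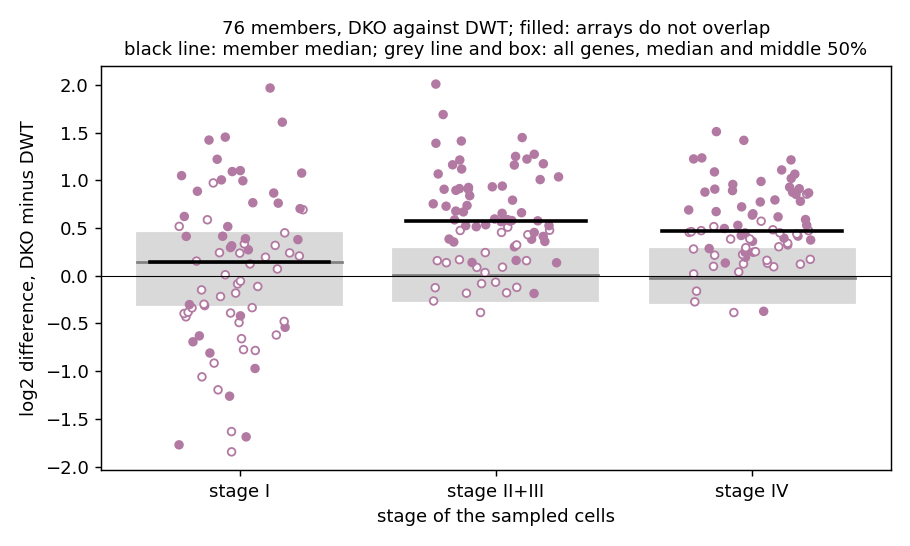
log2 difference between DKO and DWT (y axis) for the 76 members at each stage (points, filled where the arrays of the groups do not overlap), with the member median as a black line and the median and middle 50% of all genes in grey. The member median is 0.14 at stage I, 0.57 at II+III and 0.47 at IV.

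Many members share a start region with another gene. Of 67 members with a RefSeq start, 26 (38.8%) faced the start of a gene on the opposite strand within 1000 bases, against 13.8% of genes on the array and 14.3% of the 42 cytosolic ribosomal protein genes with a RefSeq start. Mrpl46 and Mrps11 face each other from 42 bases, the only pair of members that do, and the stretch between them is printed above. Mrps11 went from 13.50 and 13.29 at D1-Control to 11.60 and 11.45 at D2-Control and Mrpl46 from 11.47 and 11.28 to 8.90 and 8.37, so both fell (by 1.87 ± 0.21 and 2.74 ± 0.32; limma adjusted p = 4.17e-05 and 5.23e-05).

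For 21 of the other 24 members the facing gene was measured; the pairs named here were chosen after their values were seen. Of these 21 genes 10 fell and 1 rose between D1-Control and D2-Control, with a median of -1.02, while 18 of the 21 members beside them fell. Over all probe sets 23.5% fell and 19.7% rose. Among probe sets above background on both D2-Control arrays 41.6% fell. Whether the facing genes fell more often than other expressed genes was not tested. Ndufb5, a complex I subunit 308 bases from Mrpl47, fell by 2.77 (limma adjusted p = 7.23e-06). Tcp1, a subunit of the cytosolic chaperonin 238 bases from Mrpl18, fell by 2.32 (limma adjusted p = 0.000502), and Ptcd2, a mitochondrial RNA-processing protein 108 bases from Mrps27, fell by 2.17 (limma adjusted p = 0.000568). Sars2, the mitochondrial serine tRNA synthetase 147 bases from Mrps12, fell by 1.03 (limma adjusted p = 0.0205). The pairs did not always move together: Klc4, a kinesin light chain 141 bases from Mrpl2, rose by 1.08 (limma adjusted p = 0.0365) while Mrpl2 fell (at least 2.91-fold), and Fau, a cytosolic ribosomal protein gene 192 bases from Mrpl49, differed by -0.37 (limma adjusted p = 0.094) while Mrpl49 fell by 2.62 ± 0.21. Mrpl30 and Mrpl32, which did not fall, face Mitd1, which fell by 2.51 (limma adjusted p = 5.22e-05), and Psma2, which did not pass.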

How the data were processed

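Total RNA (700 pg per sample) from 20 samples was hybridised to 20 arrays, 2 per group, per the labels' protocols. The deposited values are log2 intensities that the authors summarised with RMA in Affymetrix Expression Console, per the submitters' processing notes; versions, the genome build and whether all arrays were normalised together are not given in the sources used here. RMA fits every array to a shared scale, so a change shared by all transcripts would not appear.

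The 8 cultured and 12 in vivo arrays were fitted separately in R 4.3.3 by limma 3.58.1, using lmFit and eBayes with its trend option, and p-values were Benjamini-Hochberg adjusted over the 19572 probe sets with 1 symbol, of 28846 in the table. Members named were, per comparison, up to 5 passing members with the highest and 5 with the lowest differences and no overlap between arrays (the highest being taken among rises and the lowest among falls; where fewer than 5 passed, those and then the smallest p up to 5), 14 landmark members, and the extreme passing genes of each related list; any other member named was chosen after its values were seen. The members and gene lists were chosen with earlier results of these data known. Replicate numbers follow accession order. In DWT they match the sex label, which ties the arrays of the stages to mice and gave a block in an alternative. The main fit did not use this pairing. In the other groups the numbers were not taken to pair arrays. Alternatives were quantile normalization, median centring, no trend, other sets of arrays, a background filter and leaving out arrays. The fitting was also run on simulated arrays with independent noise and known changes. These reproduced neither the DKO-I array that stands apart nor the mice shared between stages, so that run does not bear on either.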

Additional observations from a re-analysis of the deposited data

Results flagged for a closer look

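The IL-6 effect on Mrps25 differed between the D2 and the D1 cultures by 1.97 ± 0.38 on the log2 scale (SE; limma adjusted p = 0.0337). It did not pass with all 20 arrays in 1 fit (limma adjusted p = 0.147) or without any single array of these groups (limma adjusted p of 0.07 to 0.229). At D1 the IL-6 and control arrays overlapped (10.81 and 10.44 against 10.71 and 10.47), while at D2 both IL-6 arrays (8.89 and 8.95) lay above both control arrays (6.92 and 6.92), which were near background, so the size of the difference there is only bounded. No explanation for this difference was tested.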

How the results depend on the processing

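The fall between D1 and D2 kept its direction in every alternative run. The counts of members below are given without the share of all probe sets passing under the same setting. That share also changed with the setting, so the counts alone do not compare members with other genes. The members passing numbered 57 to 69 in control and 59 to 70 in IL-6 culture across settings that kept all arrays, and 58 to 64 and 58 to 67 without single arrays; 54 of the 68 and 53 of the 69 falling members fell in every setting that tested them. Centring arrays shifted all genes by -0.13 between D2-Control and D1-Control. The median difference there was -1.46 with quantile normalization and -2.02 with centring; in IL-6 culture quantile normalization gave -1.42. The median between D1-IL6 and D1-Control was 0.04 with centring, and that of the difference of the DKO effect between II+III and I was 0.45, and 0.21 with quantile normalization. Between D2-IL6 and D2-Control 3 members passed with the background filter, and 1 to 3 without single arrays. The difference of the IL-6 effect had 0 members passing with all 20 arrays in 1 fit and 0 to 1 without single arrays; the 1, without D2-Control replicate 2, was Mrpl19 (limma adjusted p = 0.0413), not Mrps25. For DKO against DWT at II+III, 1 member passed without the trend and 2 with all 20 arrays in 1 fit. Between DWT-I and DWT-II+III 1 passed in a fit of those arrays only. From DWT-II+III to DWT-IV the counts were 6 in a fit of those arrays and 4 with all 20, and from DKO-II+III to DKO-IV 5, 8, and 5 with the background filter. Without single arrays the counts were 0 to 4 for DKO against DWT at II+III, 0 to 8 from DWT-II+III to DWT-IV, 0 to 11 from DKO-II+III to DKO-IV, 0 to 28 for DKO against DWT at I, 0 to 31 from DKO-I to DKO-II+III, and 0 to 18 for the difference of the DKO effect between II+III and I. The values of 4, 8 and 11 are those without DKO-I replicate 2, an alternative chosen after seeing the data. With the DWT mouse as a replicate block the counts were 0 for every comparison of DKO with DWT. They were 1 from DWT-II+III to DWT-IV and 2 from DKO-II+III to DKO-IV, so no count changed. The block alters only the spread and does not adjust for sex between the genotypes. Using any probe set of a gene is the same analysis here, since each member has 1 probe set. Precision is set by having 2 arrays in each group, and members near background are only bounded.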
